A study of Mus musculus with 17 samples.

Results

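The IL-2 and IL-3 family receptor chains were followed in 17 one-colour Agilent microarrays of DA1-3b, a murine Bcr-Abl+ leukaemia cell line. The group held 10 genes of 30199 gene names on the array, chosen by an exact match of the array's own gene name: Il2ra, Il2rb, Il2rg, Il4ra, Il7r, Il3ra, Csf2ra, Csf2rb, Csf2rb2 and Epor. They were read by 13 probes of 39429. The cells had received plasmids for the NF-kB subunit p65/RelA in 5 forms: D361E, in which aspartate 361 is changed to glutamate (4 arrays), the N-terminal fragment 1-361 (3 arrays), the C-terminal fragment 362-549 (3 arrays), both fragments together, 1-361+362-549 (3 arrays), and full-length WT (4 arrays). All 5 groups carried Bcr-Abl and an introduced p65 form, the strain label was C3H eOuJ, and growth was in DMEM with serum. A void plasmid named in the treatment protocol was not analysed here, so WT, itself a transfected group, was the comparator. The labels give neither the time after transfection nor whether replicates were separate cultures, and p-values here measure only how far these arrays spread, some of which may be technical.

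Cytokine receptors of this class have no kinase of their own. A ligand-binding alpha chain joins a shared signalling chain, Janus kinases bound to the chains are activated, and STAT5 is a main output. Il2ra, Il2rb and Il2rg form the high-affinity IL-2 receptor, and Il2rg is also shared with the receptors of Il4ra and Il7r. Il3ra and Csf2ra pair with the common beta chain Csf2rb, and mice carry a second, IL-3-specific beta chain, Csf2rb2. Epor, the erythropoietin receptor, signals as a homodimer. Bcr-Abl releases IL-3-dependent lines from the need for that cytokine, and the Il2ra promoter is a textbook target of NF-kB.

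Because the plasmids encode an NF-kB subunit, the promoter of Il2ra is shown from RefSeq (GRCm38.p6, plus strand, chr2:11642542-11642841, 250 bases before to 50 after the start), with matches to the kappaB consensus in capitals.
Il2ra promoter: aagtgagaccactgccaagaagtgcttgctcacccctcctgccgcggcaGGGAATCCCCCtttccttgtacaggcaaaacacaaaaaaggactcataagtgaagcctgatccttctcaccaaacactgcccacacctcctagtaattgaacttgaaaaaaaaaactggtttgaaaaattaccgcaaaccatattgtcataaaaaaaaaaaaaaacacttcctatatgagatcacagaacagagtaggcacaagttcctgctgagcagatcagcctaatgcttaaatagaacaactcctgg
The capitals hold 2 overlapping matches, at positions -201 and -200 from the start site. Promoters of 8 of the 10 genes were matched in the table, the others being Csf2rb and Il2rb. A kappaB consensus match lay in 2 of those 8, Il2ra and Il4ra, on either strand, and in 8.46% of all 32851 promoters. The STAT motif TTCNNNGAA, searched on both strands, lay in Csf2rb2 and Il7r, and in 8.30% of all promoters. These matches describe letters in the window only.

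Because the mouse beta chains are near-identical copies, the shared stretch of 1 probe of each is shown, with the differing bases in capitals (5′ to 3′, chromosome 15).
Csf2rb probe A_52_P52618, from base 30: ggcagatcaaAtgtCccttggtctCtgttc
Csf2rb2 probe A_51_P146753, from base 12: ggcagatcaaGtgtTccttggtctAtgttc
Of these 30 bases 27 were identical, and the differences, counted from 1 at the 5′ end of the stretch with the Csf2rb base first, were A11G, C15T and C25A. This pair of probes may therefore read both transcripts in part, and neither is separate evidence for its gene. The other probe of each gene shared at most 6 bases in a row with the probes of the other gene. Probes were compared with probes only and not with the other gene's transcript. Whether these other probes read only their own gene was therefore not tested.

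Of the 10 genes, 8 could be tested, through 11 probes, the filter being a signal well above background on all arrays of some group. Il7r was not well above background on any of the 17 arrays. Csf2ra, the GM-CSF receptor alpha chain, was well above background on 10 of 17 arrays but on all arrays of no group, with log2 levels of -5.35 to -3.85, and was not tested. Levels are log2 signals relative to each array's 75th percentile, which lay between 636 and 1210 signal units. Levels of different probes are not comparable with each other. Arrays of the same construct correlated across probes at 0.965 to 0.995. Of 10 genes listed for line identity, Ptprc, Spi1, Itgam, Myb and Abl1 were well above background on all arrays. Cd34, Mpo and Cd33 were so on 1 array each, and Kit and Cebpa on none. The Rela probe averaged 4.74 to 4.86 across the 5 groups, with no contrast called (smallest adjusted p = 0.494); whether it reads the plasmids was not looked up.

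**Figure D1:**
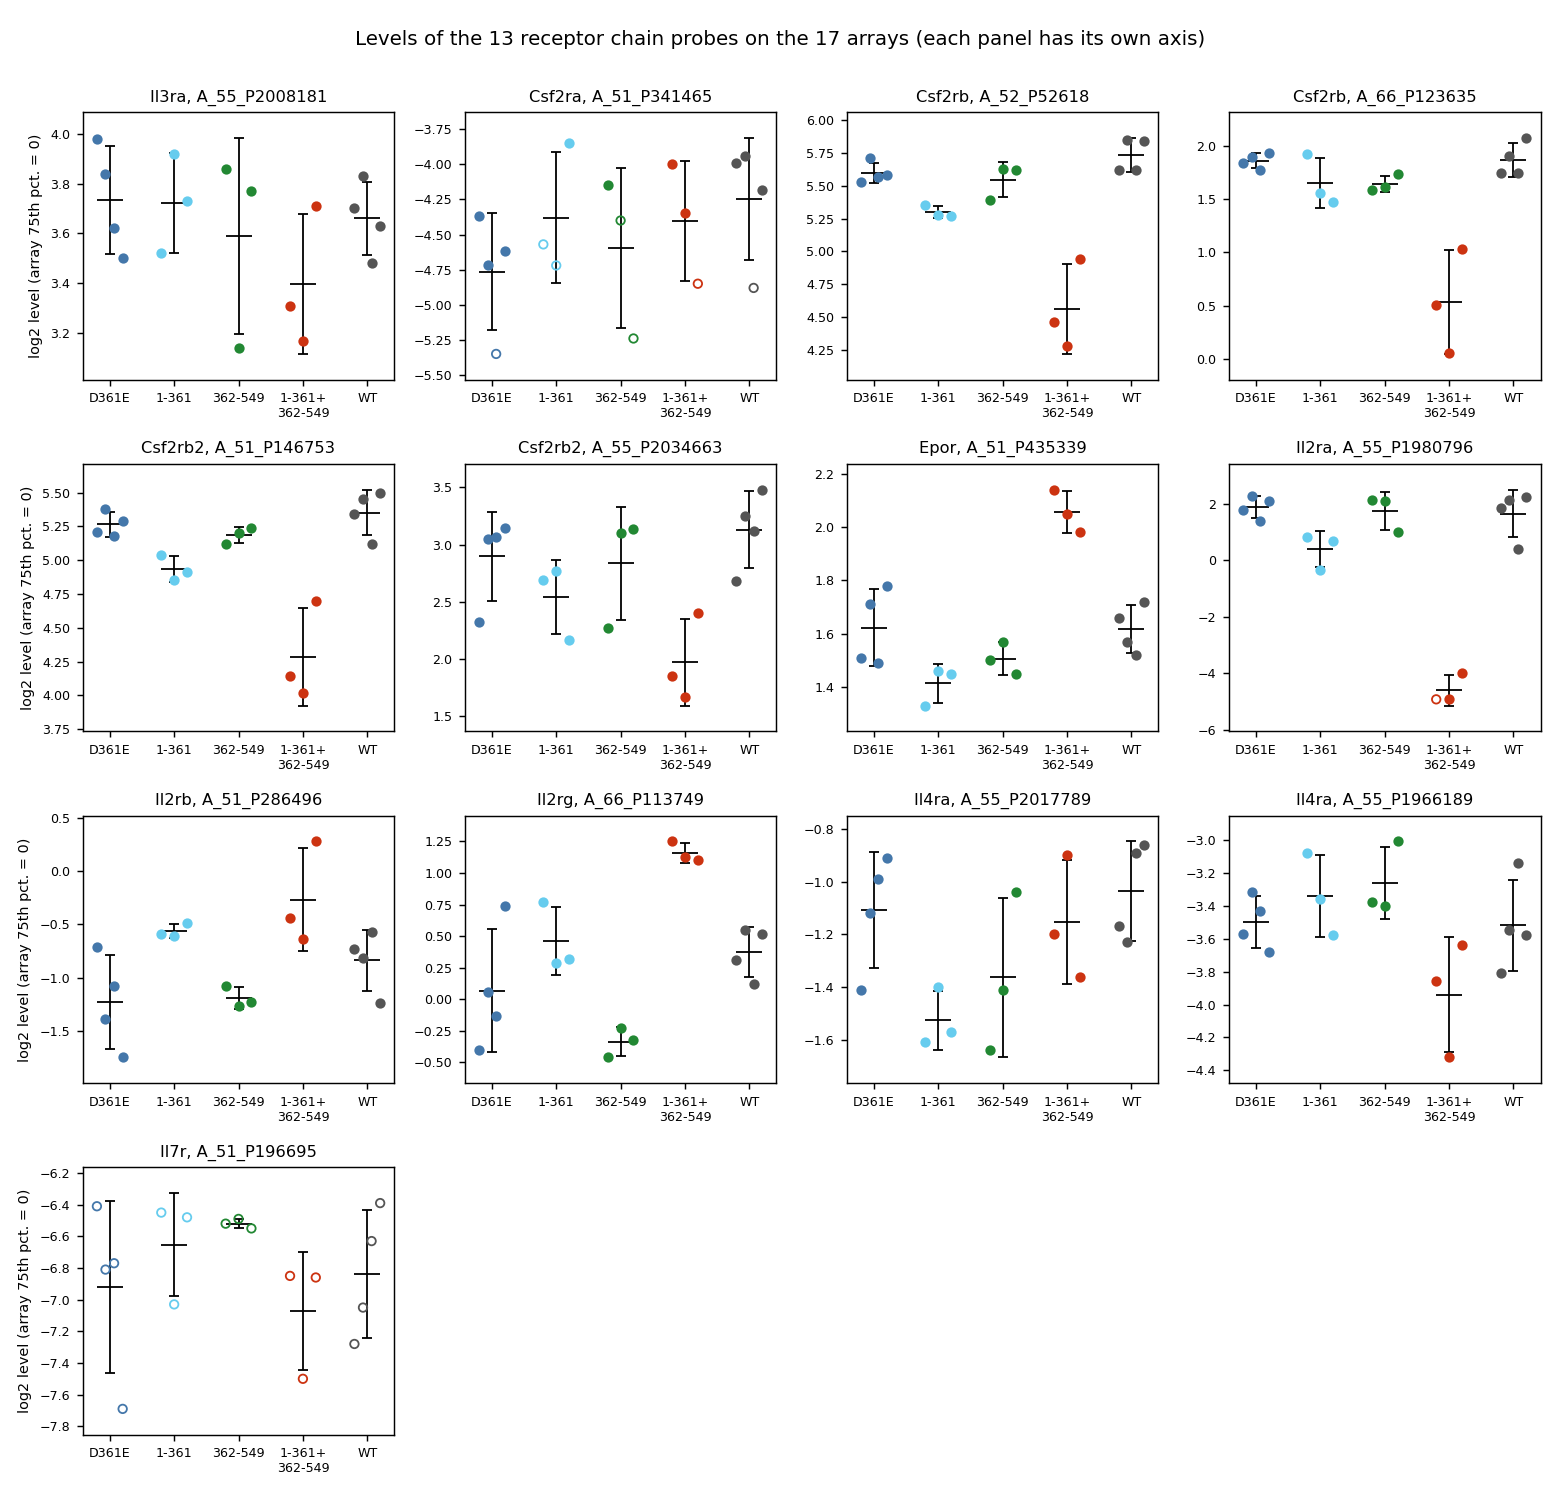
Log2 level of each receptor chain probe (y axis, each panel its own) by construct (x axis); points are arrays, open where the probe was not well above background, and bars are mean ± SD. The 1-361+362-549 arrays lie apart for Il2ra, Csf2rb, Csf2rb2 at probe A_51_P146753, Epor and Il2rg.

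Against WT, receptor chain genes changed with both fragments together, where 4 of 10 passed the test, and none passed with D361E or with either fragment alone. A call is a limma adjusted p under 0.05, with Benjamini-Hochberg adjustment over all 19774 probes tested. A gene counts as called when any of its probes is, whereas the shares over the array are of single probes. With both fragments, Il2ra, Csf2rb and Csf2rb2 were lower and Epor was higher, through 6 of 11 probes, whereas 4.57% of all probes were called (1.70% higher and 2.87% lower). Groups did not overlap for 7 of 11 probes, against 16.0% of all probes. By limma, none of the 10 genes was called with D361E, where 0.435% of all probes were called, with 1-361 (0.637%) or with 362-549 (0.622%). At an unadjusted p under 0.05 there were 0 of 11 probes with D361E, 4 of 11 with 1-361 and 1 of 11 with 362-549. Over all 19774 probes such p-values numbered 911, 1407 and 1640. The 4 with 1-361 include the pair of beta chain probes with the shared stretch. An F-test over the 4 contrasts with WT called 5 of the 10 genes, Il2ra, Il2rg, Csf2rb, Csf2rb2 and Epor, where 7.55% of all probes were called.

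Il2ra, the alpha chain that gives the IL-2 receptor its high affinity, showed the widest change of the 10 genes. Its probe lies at chr2:11614744-11614803 on mm9. With both fragments the log2 levels were -4.92, -4.91 and -3.99, against 1.83, 2.13, 0.41 and 2.22 with WT. All 3 arrays with both fragments lay below all 4 WT arrays, and on 1 of the 3 the probe was not well above background. The difference was -6.26 ± 0.44 (SE; 76.4-fold lower; limma adjusted p = 2.54e-07), the sixth lowest of the 19774 probes tested. With normexp background correction the difference was -4.00 (adjusted p = 0.000143), so the size of the fold rests on how low signals are treated.

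The other constructs left Il2ra well above background on every array. With D361E the levels were 1.79, 2.27, 1.38 and 2.08, and with 362-549 they were 2.14, 2.11 and 0.98. Both sets overlapped the WT arrays. With 1-361 the levels were 0.83, -0.34 and 0.69, also overlapping WT through WT replicate 3, and the difference of -1.26 ± 0.44 was not called (limma adjusted p = 0.461; 95% interval -2.20 to -0.31). In order of mean level the constructs ran D361E (1.88), 362-549 (1.74), WT (1.65), 1-361 (0.39) and both fragments (-4.61), and of the steps between neighbours only the last was called. Il2ra with both fragments was 31.9-fold lower than with 1-361 alone (adjusted p = 8.38e-06), 81.6-fold lower than with 362-549 alone (5.54e-07) and 89.6-fold lower than with D361E (1.63e-07). With normexp background correction these log2 differences were -2.95, -4.21 and -4.32, each still called, so the folds are not exact.

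Neither of its partner chains was called against WT. Il2rb, the signalling beta chain shared by the IL-2 and IL-15 receptors, had levels of -0.44, -0.64 and 0.28 with both fragments, against -0.73, -0.82, -0.57 and -1.24 with WT. These ranges overlapped, and the difference of 0.57 ± 0.25 was not called (limma adjusted p = 0.246). Il2rg, the common gamma chain, had levels of 1.25, 1.13 and 1.10 with both fragments, against 0.31, 0.55, 0.12 and 0.52 with WT. These did not overlap, yet the difference of 0.78 ± 0.22 missed the threshold (limma adjusted p = 0.0567; 95% interval 0.32 to 1.25). It passed the threshold in 2 of 11 other fits. These were those groups alone in the fit (0.0472) and the round of the title numbers, described below, as a block (0.92; 0.00198). It also passed the threshold without D361E replicate 1 or 4 (0.0368 and 0.00889). Against other constructs the partner chains did pass it. Il2rg was higher with both fragments than with D361E by 1.09 ± 0.22 (adjusted p = 0.00539) and than with 362-549 by 1.49 ± 0.23 (0.000766). Within the 3 slides shared with D361E the Il2rg difference was 1.49, 0.39 and 1.37. The call against D361E was lost with normexp (0.0671) and with those groups alone in the fit (0.0763), and the call against 362-549 with slide as a block (0.0955).

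Il2rb was higher with both fragments than with D361E by 0.97 ± 0.25 (limma adjusted p = 0.0229) and than with 362-549 by 0.92 ± 0.26 (0.0322). The D361E levels of Il2rb were -0.71, -1.39, -1.08 and -1.75 and those of 362-549 were -1.08, -1.27 and -1.23, all below the 3 arrays with both fragments. The Il2rb call against D361E was lost without D361E replicate 2 and without both-fragment replicates 1 or 3 (adjusted p of 0.0501 to 0.0700). The call against 362-549 was lost without any 1 of the 3 arrays of 362-549 and without both-fragment replicates 1 or 3 (0.0611 to 0.0901). Both calls were also lost with slide as a block (0.0682 and 0.364), without the filter on dim probes (0.0576 and 0.0788) and with those groups alone in the fit (0.164 and 0.128), and the second with normexp (0.0658). With 1-361 alone, Il2rb levels were -0.59, -0.61 and -0.49, and both fragments differed from them by 0.30 ± 0.26 (adjusted p = 0.469). Il2rg levels with 362-549 alone were -0.46, -0.23 and -0.32, below every WT array, but that difference of -0.71 ± 0.22 was not called (adjusted p = 0.311).

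Both beta chains of the IL-3 receptor were lower with both fragments, each on both of its probes, which were not tested for telling the chains apart. Csf2rb, the common beta chain of the IL-3, IL-5 and GM-CSF receptors, had levels of 4.46, 4.28 and 4.94 at probe A_52_P52618 with both fragments, against 5.62, 5.85, 5.62 and 5.84 with WT. The difference was -1.17 ± 0.15 (2.25-fold lower; limma adjusted p = 0.000122). At probe A_66_P123635 levels were 0.51, 0.06 and 1.03 with both fragments, against 1.74, 1.90, 1.74 and 2.07 with WT, a difference of -1.33 ± 0.19 (adjusted p = 0.000365). On both probes all 3 arrays with both fragments lay below all WT arrays, and replicate 3 lay nearest to WT.

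Csf2rb2, the IL-3-specific beta chain of mice, had levels of 4.14, 4.02 and 4.70 at probe A_51_P146753 with both fragments, against 5.34, 5.45, 5.12 and 5.50 with WT. That difference was -1.06 ± 0.15 (2.09-fold lower; limma adjusted p = 0.000485). At probe A_55_P2034663 levels were 1.85, 1.67 and 2.40 with both fragments, against 2.68, 3.25, 3.12 and 3.48 with WT, and the difference was -1.16 ± 0.28 (adjusted p = 0.0247). The groups did not overlap on either probe. The second call was lost without both-fragment replicates 1 or 2 (adjusted p = 0.117 and 0.146) and without WT replicates 2, 3 or 4 (0.0724, 0.0539 and 0.0711). It was also lost with 5 of 10 other fits. These included normexp (0.0966), no scaling between arrays (0.153) and no filter on dim probes (0.0631). Slide as a block (0.482) and those groups alone in the fit (0.0642) ended it too. The probes with the shared stretch correlated at 0.989 over the 17 arrays, and the other pair, one probe of each gene, at 0.811, as a description over arrays that share the same groups.

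**Figure D2:**
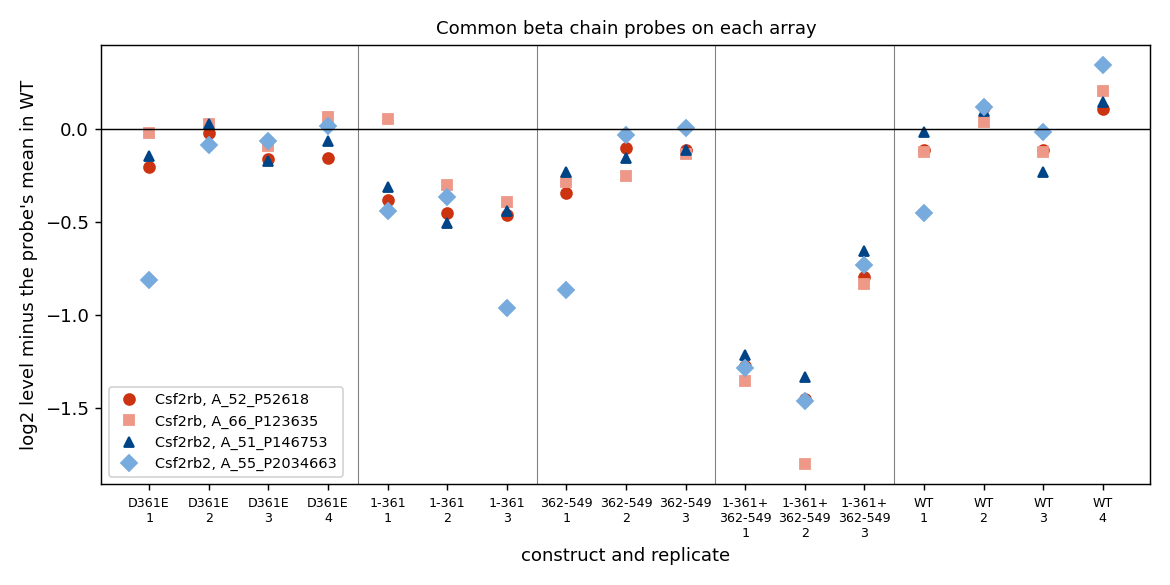
Log2 level of the 4 beta chain probes on each array, minus that probe's own mean over the WT arrays (y axis), by construct and replicate (x axis). The 1-361+362-549 arrays are lowest for both Csf2rb probes and for Csf2rb2 probe A_51_P146753; A_55_P2034663 is also low on D361E replicate 1, 1-361 replicate 3 and 362-549 replicate 1.

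No beta chain probe was called against WT with a single fragment. Csf2rb at A_52_P52618 had 5.35, 5.28 and 5.27 with 1-361, below every WT array, but the difference of -0.43 ± 0.15 was not called (limma adjusted p = 0.429). With 362-549 the levels at that probe were 5.39, 5.63 and 5.62, and with D361E 5.53, 5.71, 5.57 and 5.58, both overlapping WT. Both fragments together differed from 1-361 alone by -0.74 ± 0.16 (adjusted p = 0.0098) and from 362-549 alone by -0.98 ± 0.16 (0.000963). Without scaling between arrays these differences were -0.31 and -0.37 and neither was called (0.321 and 0.186). Nor was either called with slide as a block (0.0976 and 0.143) or with those groups alone in the fit (0.117 and 0.0823), and normexp ended the first (0.150). The first was also lost without both-fragment replicate 1 (0.0550) or replicate 2 (0.0649).

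Il3ra, the alpha chain that binds IL-3, was not called in any contrast. Its levels were 3.31, 3.17 and 3.71 with both fragments, against 3.70, 3.83, 3.48 and 3.63 with WT. The ranges overlapped, and the difference of -0.27 ± 0.19 had a 95% interval of -0.68 to 0.15 (limma adjusted p = 0.516). Over D361E, 1-361 and 362-549 it ranged from 3.14 to 3.98, and a change inside that interval could not be told from none.

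Of the 10 genes, Epor alone was called higher than WT. Levels were 2.14, 2.05 and 1.98 with both fragments, against 1.66, 1.57, 1.52 and 1.72 with WT, a difference of 0.44 ± 0.11 (1.36-fold; limma adjusted p = 0.0361). All 3 arrays with both fragments also lay above all 10 arrays of D361E, 1-361 and 362-549, which ranged from 1.33 to 1.78. Both fragments were above D361E by 0.44 ± 0.11 (0.0241), 1-361 by 0.65 ± 0.12 (0.00375) and 362-549 by 0.56 ± 0.12 (0.00865). With slide as a block none of these 3 calls held (0.101, 0.0605 and 0.227), nor did any with normexp or with those groups alone in the fit (0.0854 to 0.264). The call against WT is fragile: it was lost with 5 of 11 other fits and without D361E replicate 2, 1-361 replicate 2 or 3, both-fragment replicate 1 or 2, or WT replicate 1, 2 or 3 (adjusted p of 0.0503 to 0.184). The call against D361E was lost without D361E replicate 1 or 3 and without both-fragment replicate 1 or 2 (0.0720 to 0.117).

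Il4ra, the IL-4 receptor alpha chain, had a pair of probes, and neither was called against WT. At A_55_P2017789 levels were -1.20, -0.90 and -1.36 with both fragments, against -1.17, -1.23, -0.89 and -0.86 with WT (difference -0.12 ± 0.18; limma adjusted p = 0.770). At A_55_P1966189 they were -3.86, -4.32 and -3.64 with both fragments, against -3.81, -3.55, -3.14 and -3.58 with WT (difference -0.42 ± 0.20; adjusted p = 0.292). The second probe alone was called in 1 contrast, both fragments against 362-549, at -0.68 ± 0.21 (adjusted p = 0.0454). That call was lost with 7 of 10 other fits and on leaving out 11 of the 17 arrays in turn, and the difference there was -0.06 with normexp background correction. The first probe differed by 0.21 ± 0.19 in the same contrast (0.483).

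Both fragments against D361E called 6 of 10 genes through 7 of 11 probes (8.71% of all probes called). Epor, Il2rb and Il2rg were higher (3.78% of probes) and Il2ra, Csf2rb and Csf2rb2 lower (4.93%). Against D361E and against 362-549, Csf2rb2 was called through A_51_P146753 only, the probe with the shared stretch. Its probe A_55_P2034663 overlapped both of those groups and was not called (limma adjusted p = 0.0533 and 0.0682). Both fragments against 1-361 called 4 of 10 through 5 of 11 probes (9.37%), with Epor higher (3.86%) and Il2ra, Csf2rb and Csf2rb2 lower (5.50%). Csf2rb2 was called there at A_51_P146753 only (-0.64 ± 0.17; adjusted p = 0.0264), and not without any 1 of the 3 arrays of 1-361 or without both-fragment replicate 1 or 2 (0.0590 to 0.149). Of 11 other fits 6 also ended that call, and without scaling the difference was -0.21 (0.523). Against 362-549 the count was 7 of 10 through 8 of 11 probes (13.2%). Epor, Il2rb and Il2rg were higher (5.13%) and Il2ra, Csf2rb, Csf2rb2 and Il4ra lower (8.09%). No slide held both of these groups, the both-fragment arrays lying on slides 4, 3 and 2 and those of 362-549 on 1, 6 and 5. Construct and slide could thus be separated only through other groups, and with slide as a fixed block the count was 1. The split over all probes in these 3 contrasts depends on the scaling. Of all called probes 43.4% were higher against D361E, 41.3% against 1-361 and 38.8% against 362-549, whereas without scaling between arrays the shares were 86.7%, 86.1% and 94.5% and the medians over all probes were 0.41, 0.39 and 0.57. Contrasts between the other tested constructs called 0 by limma. These were 1-361 against D361E (0.915% of all probes called), 362-549 against D361E (1.16%) and 1-361 against 362-549 (0.536%). At an unadjusted p under 0.05 they had 4, 0 and 3 of 11 member probes. Over all 19774 probes such p-values numbered 1595, 1905 and 1053. The 4 contrasts of the both-fragment arrays share those 3 arrays, so their values stand side by side and are not independent of each other.

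**Figure D3:**
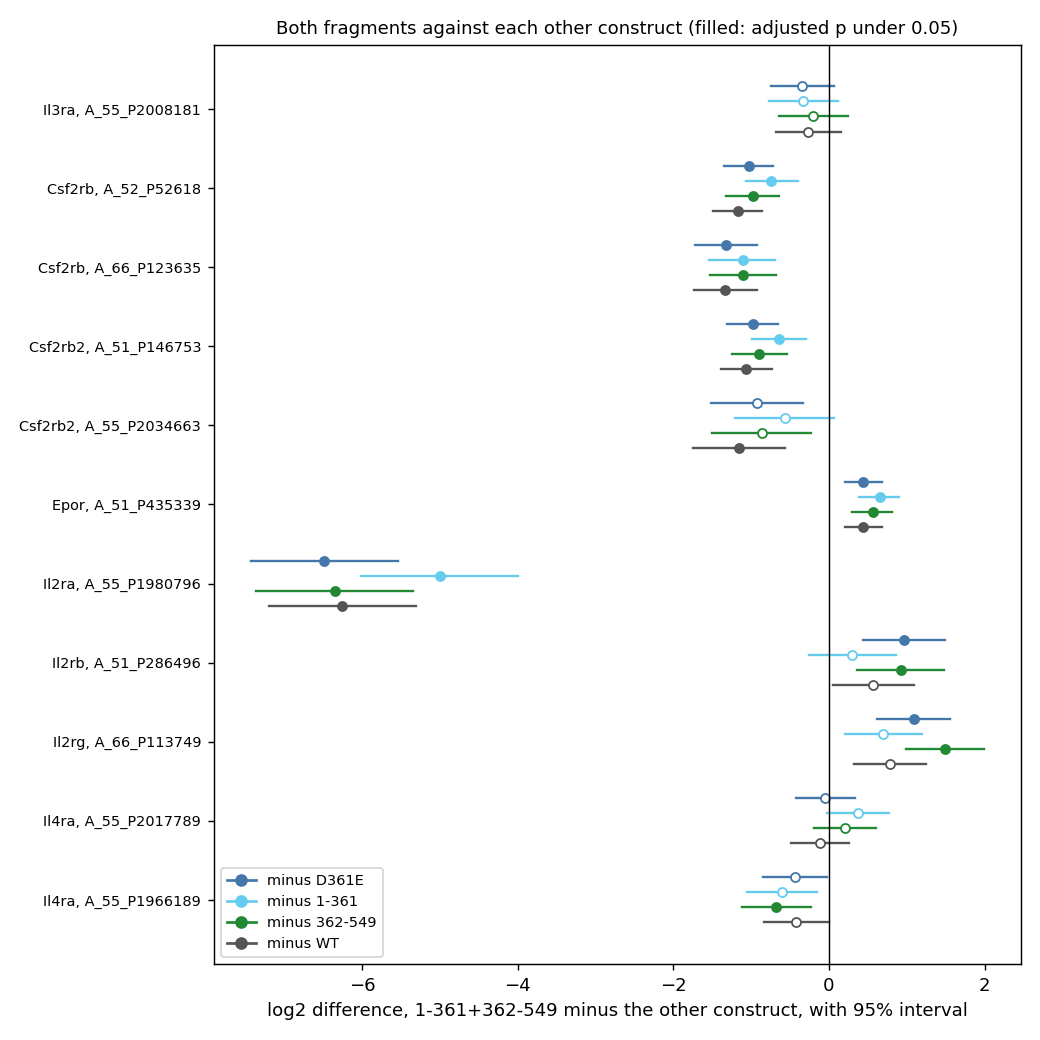
Log2 difference of the 1-361+362-549 arrays minus each other construct (x axis, with the 95% interval) for the 11 tested probes (y axis); filled points were called. Il2ra lies furthest left in each of the 4 contrasts, and both Csf2rb probes lie below 0 in each.

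The arrays lay on 6 slides of 2 to 4 arrays, and both fragments shared a slide with WT on slide 3 only. Within that slide the differences were -6.74 for Il2ra, -1.34 and -1.67 for Csf2rb, -1.32 and -1.01 for Csf2rb2, 0.39 for Epor and 0.83 for Il2rg. Their directions were those of the whole data. Il2rb differed there by 0.09 only. With slide as a fixed block, Il2ra (-6.13; limma adjusted p = 0.000348), Csf2rb (-1.12 and -1.41; 0.0301 and 0.0146) and Csf2rb2 at A_51_P146753 (-1.04; 0.0461) stayed called. Under the same block Csf2rb2 at A_55_P2034663 (0.482) and Epor (0.345) were not called.

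Single markers of other cell types also differed on the both-fragment arrays. The NK cell list, of which 2 of 6 genes were well above background on all arrays and Ncr1, Klrb1c and Klrk1 on none, had a summed level of 0.419 to 0.593 with both fragments, against 6.81 to 27.2 with WT. Levels here are linear, with the 75th percentile at 1. Gzmb, granzyme B, carried that sum (-6.64; limma adjusted p = 1.99e-07), and Prf1, the other gene detected throughout, was not called (-0.17; 0.785). The mast cell or basophil list, with 2 of 7 genes well above background on all arrays and Ms4a2 on none, summed to 0.466 to 0.657 with both fragments, against 2.26 to 3.93 with WT. There Cpa3 (-7.37), Fcer1a (-3.68), Mcpt4 (-3.50) and Mcpt8 (-2.30) were called lower, whereas Hdc (0.28) and Tpsb2 (0.17), the genes well above background on all arrays, were not called. The megakaryocyte list, with all 4 genes well above background, summed to 111 to 175 with both fragments, against 40.7 to 51.8 with WT. Of that list Pf4 alone was called (2.2; 4.89e-06), and Gp1ba (0.71), Gp9 (0.01) and Itga2b (-0.40) were not. For the T cell list, 4 of 7 genes on the array with Cd8a on none, sums were 3.15 to 5.73 with both fragments, against 4.45 to 6.34 with WT. Cd3d (-0.95) and Cd3g (-2.09) were called lower, and Cd3e (0.20), Cd4 (0.10) and Lck (0.29) were not called. The erythroid list summed to 43.4 to 55.9 with both fragments, against 45.7 to 63.9 with WT. Klf1 (-0.84) was called lower and the probe of Hbb-b1 and Hbb-bt (1.33) higher, whereas Gata1 (-0.35), Tfrc (0.21) and Hba-a1 (0.79) were not called. Of the macrophage or monocyte list Adgre1 (-3.48) was called lower, and Csf1r (-0.23) and Cd68 (-1.35) were not called. In bulk RNA fewer cells of a type and less RNA per cell cannot be told apart, and the part of these markers in the receptor results was not tested.

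Among the ligands, 3 of 12 listed genes were tested, and 2 of these were lower with both fragments. Over all probes 4.57% were called. Both genes passed the detection filter only through other groups, where they were higher. The filter thus favours a fall here, and the share is not read as a result about the ligands. Il13 was at least 11.2-fold lower than with WT (limma adjusted p = 1.23e-05; measured means -6.48 with both fragments and -1.73 with WT), and Il4 at least 8.11-fold (0.00221; -5.32 with both fragments and -2.20 with WT). Both encode type 2 cytokines that act through Il4ra-containing receptors, and neither was well above background on any both-fragment array. Each bound is the mean of the bright group over the lowest signal well above background on the dim arrays, or the probe's own signal where higher. For 362-549 against WT, the Il13 bound was 7.56-fold lower at least (0.000148). With normexp background correction the log2 differences with both fragments were only -1.68 for Il13 and -1.45 for Il4. For Il13 with 362-549 the difference was -1.89. None of these 3 calls was kept there (adjusted p of 0.142 to 0.289). The bounds thus hold for the deposited processed intensity only and not under normexp. The probes of Il2, Il5, Il7, Il9 and Csf2 were not well above background on any array, Il3 was so on 9 of 17 and Epo on 7.

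Among the other cytokine receptor chains, Il10rb, the second chain of the IL-10 receptor, was higher with both fragments than with WT by 0.99 ± 0.24 (limma adjusted p = 0.0241). That call did not hold with slide as a block (0.258), and it was lost without both-fragment replicate 2 or 3 or WT replicate 1, 2 or 4 (0.0618 to 0.0846). No chain of that list was called lower. The median difference of the 13 chains tested was -0.01, against 0.04 over all probes.

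Of the Janus kinases and STATs, 0 of 9 tested were called with both fragments by limma, with a median of -0.24. An unadjusted p under 0.05 was found for 2 of 9, against 3387 of all 19774 probes. Named after their values were seen, Stat5a differed by -0.24 ± 0.31, Stat5b by -0.42 ± 0.18 and Jak2 by 0.10 ± 0.14. Called were 2 of 15 adaptors and kinases that act below the common beta chain (13.3%, against 4.57% of all probes). As the list was chosen with earlier results of these data known, that share is a description. Pik3cd, the leukocyte PI3-kinase catalytic subunit, fell by 1.44 on the log2 scale (SE 0.22; adjusted p = 0.000722), and Irs2, an insulin and IL-4 receptor substrate, rose by 1.38 ± 0.28 (0.00819). With slide as a block neither held (0.0567 and 0.180).

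With both fragments 4 of 18 negative regulators fell and none rose, a share of 22.2%, against 4.57% of all probes called. The list was chosen with earlier results of these data known, so this share is a description and no test of the pathway. Cish, the STAT5-induced SH2 protein, had levels of 2.67, 2.62 and 4.00 with both fragments, against 4.70, 4.91, 5.58 and 4.01 with WT (-1.70 ± 0.44; limma adjusted p = 0.0372). Its replicate 3 sat just below the lowest WT array, and leaving out replicate 1 or 2 with both fragments ended the call (0.191 and 0.197), as did leaving out WT replicate 1, 2 or 3 (0.0688, 0.0960 and 0.110), D361E replicate 2, 1-361 replicate 3 or 362-549 replicate 1 (up to 0.0536). Socs3, a feedback inhibitor of Janus kinases, had -0.27, -0.39 and -0.19 with both fragments, against 0.54, 0.89, 1.07 and 0.79 with WT (-1.10 ± 0.15; 0.000232). Socs1, of the same family, differed by -1.44 ± 0.27 (0.00461) and the adaptor Dok2 by -0.69 ± 0.14 (0.00743). With slide as a block Cish, Socs1 and Dok2 were not called (0.363, 0.160 and 0.333). Socs2, named after its value was seen, differed by -0.05 ± 0.15. The list's median was -0.10.

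With both fragments 3 of 11 STAT5 output genes fell and none rose (27.3%, against 4.57% of all probes called). The list's median was -0.62, against 0.04 over all probes. This list too was chosen with earlier results of these data known, and each gene stands by its brightest tested probe. Its share and median are therefore descriptions and no test of the pathway. Osm, the cytokine oncostatin M, had -2.21, -2.56 and -2.04 with both fragments, against -0.22, 0.47, 1.01 and -0.26 with WT (-2.52 ± 0.29; limma adjusted p = 5.96e-05). Id2 and Id1, inhibitors of basic helix-loop-helix factors, differed by -2.12 ± 0.31 (0.000502) and -0.93 ± 0.13 (0.000485). Without scaling between arrays Id1 was not called (0.0556). The survival genes Bcl2l1 (0.11 ± 0.15), Mcl1 (-0.12 ± 0.30) and the growth regulator Myc (-0.12 ± 0.23) were not called, nor was the kinase gene Pim1 (-0.69 ± 0.28; 0.217), all 4 named after their values were seen. Of the growth factor receptor kinases Csf1r alone was tested, and it was not called (-0.23). With D361E and with 1-361 or 362-549 alone, no gene of the kinase and STAT, adaptor, negative regulator or STAT5 output lists was called against WT by limma. At an unadjusted p under 0.05 each of these lists had 0 to 3 such genes in those contrasts. Over all 19774 probes the numbers were 911 with D361E, 1407 with 1-361 and 1640 with 362-549.

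**Figure D4:**
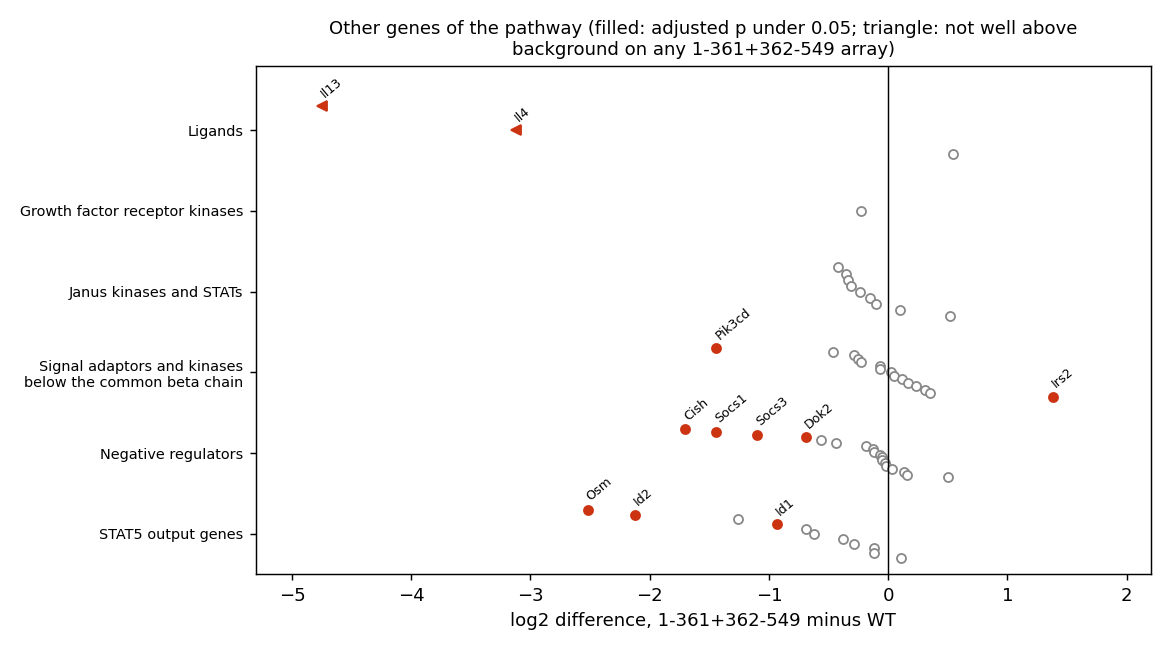
Log2 difference of 1-361+362-549 minus WT (x axis) for every tested gene of 6 pathway lists (y axis); filled points were called, and triangles mark genes not well above background on any 1-361+362-549 array, whose plotted value is the fitted one. Called negative regulators and STAT5 output genes all lie left of 0.

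The genes most alike in pattern over the 17 arrays were named for each chain called in the F-test, by Pearson correlation and as a description, since the arrays share the same groups. Il2ra ran closest to Adgrg3 (0.987), Ifitm1 (0.985) and Col6a3 (0.982). Csf2rb ran closest to Csf2rb2 (0.989), Serpinb1a (0.961) and Col6a3 (0.958), and Csf2rb2, after Csf2rb, to Col6a3 (0.947) and Selplg (0.939). Epor ran closest to Mpc2 (0.956), Myl2 (0.953) and Edem3 (0.945). Il2rg ran closest to Rbx1 (0.948), Actn2 (0.929) and Sfr1 (0.906).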

How the data were processed

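Total RNA of 17 transfected DA1-3b samples was hybridised to one-colour Agilent arrays of design 026655. Per the file headers, the authors' Agilent Feature Extraction (10.7.3.1) produced the deposited processed intensity, background-subtracted and detrended, for probes placed on mm9; no other normalization is stated. The series value table held the same intensity. Samples were grouped by their source label. Log2 intensities were set to each array's 75th percentile, control spots and outlier spots were left out, and spots of a probe were averaged. Probes whose signal was well above background on all arrays of some group (19774) were fitted with limma (3.58.1; R 4.3.3) over all 5 groups, with adjusted p under 0.05 as a call. The fit was tested on simulated data. Arrays have no counting depth; their number, 3 or 4 per group, limits precision. Alternatives were background correction, normalization, probe filter, gene summary, slide and replicate blocks, groups fitted, and arrays left out. For the lists, up to 4 called genes per contrast with the smallest adjusted p were named, and 3 most alike genes for each chain called by the F-test. The chains and lists were chosen with earlier results of these data known. One result among the listed genes is not reported here.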

Additional observations from a re-analysis of the deposited data

Results flagged for a closer look

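Csf2rb2 at probe A_55_P2034663 stood apart on D361E replicate 1, with a log2 level of 2.32, against 3.05 to 3.15 on the other 3 D361E arrays. The gap was 0.88 of the group's range. Among 26 groups of 4 arrays examined over the receptor chain probes this was the 1 such sample. Chance alone flags about 1 group in 20, so 1 flag among 26 groups is about what chance gives. The other Csf2rb2 probe, A_51_P146753, had 5.21 on that array and 5.18 to 5.38 over the D361E arrays.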

How the results depend on the processing

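Over 11 other fits and 17 fits with an array left out, Il2ra and both Csf2rb probes stayed called against WT with both fragments wherever they were tested; Il2ra was not tested where all 17 arrays had to be well above background. Counts of receptor chain genes that moved by over 1.5 times were as follows. With both fragments against D361E the count was 3 with only those groups in the fit; against 1-361 it was 2 with normexp, 2 with slide as a fixed block and 1 with only those groups; against 362-549 it was 4, 1 and 2 under the same settings; and in the F-test 3 with normexp and 2 with the slide block. Leaving out 1 array gave 3 to 5 genes against WT, 4 to 6 against D361E, 3 to 5 against 1-361, 5 to 7 against 362-549 and 4 to 6 in the F-test, and 0 in the other 6 contrasts.

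Probe counts over the whole array against WT moved more. For D361E (86) they were 9 with normexp, 57 without the filter, 33 with probes above background on all arrays, 28 with the slide block and 53 with only those groups, and 47 (without D361E replicate 2) to 105 with an array left out. For 1-361 (126) they were 32 with normexp, 61 with the strict filter and 45 with the slide block, and 77 (without 1-361 replicate 1) to 143 with an array left out. For 362-549 (123) they were 28 with normexp, 52 with the strict filter, 74 with the slide block and 78 with only those groups, and 89 to 138 left out. For both fragments (904) they were 203 with normexp, 507 without scaling, 283 with the slide block and 504 with only those groups, and 506, 519 and 1423 without both-fragment replicate 2, 1 or 3. For the F-test (1493) they were 380 with normexp, 990 without the filter and 534 with the slide block, and 806 to 2344 left out, the extremes being without both-fragment replicates 1 and 3. The cause of these moves was not tested.

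Without scaling the median over all probes shifted to 0.23 with both fragments and to -0.36 with 362-549 against WT, and Il4ra at A_55_P2017789 turned to 0.07 (adjusted p = 0.895) with both fragments. Of the calls against WT, 58.1% were higher with D361E and 33.3% with 362-549, and 38.3% and 18.8% without scaling.

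Title numbers fall in 4 rounds. Same-round arrays of different constructs deviated together in 25 of 31 pairs above 0.1 (median correlation 0.42, lowest -0.174). The 84 other pairs had a median of -0.156. For 14 of 17 arrays the most alike array of another construct was of the same round. Arrays of a round thus tended to deviate together, which the main fit does not model. Not every pair did so, which is short of a pairing. With the round as a replicate block the probe counts were 300 for D361E, 230 for 1-361, 226 for 362-549, 5852 for both fragments and 6822 for the F-test, Il2rg was called with both fragments against WT (0.92; adjusted p = 0.00198), and 1 receptor chain gene was called for 1-361 against 362-549. Il2ra and Epor stayed called against WT under that block. Signal over background limits Il2ra, Il4, Il13, Csf2ra and Il7r.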

Other observations

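The immediate neighbours of Il2ra on chromosome 2 were looked up after the values were seen, in RefSeq gene order. With both fragments against WT, Il15ra differed by -0.01 ± 0.16, Rbm17 by -0.10 ± 0.14, Fbh1 by -0.03 ± 0.19 and Pfkfb3 by -0.46 ± 0.14 (limma adjusted p = 0.980, 0.738, 0.957 and 0.0712), and none was called. Between Csf2rb2 and Il2rb on chromosome 15, where 3 of the genes that lie between were tested besides Csf2rb, Tmprss6 was higher by 0.77 ± 0.14 (0.00453), whereas Tst (0.63 ± 0.24; 0.186) and Mpst (-0.14 ± 0.16; 0.699) were not called.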
